A study of Mus musculus with 2 samples.

Results

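The extracellular matrix genes described here are 49 listed genes out of 55536 in the annotation of the deposited gene tables, and all 49 were found by symbol in the gene table of each animal. They comprise 6 fibrillar collagens, 16 basement membrane genes, 4 small leucine-rich proteoglycans, 7 other collagens, 7 genes of elastic fibres and matrix cross-linking, 7 adhesive and matricellular genes, and the pair Timp3 and Pdgfra. Each library was made from 300 ng of adrenal gland total RNA, with ERCC spike-in RNA added, of 1 of 2 adult female B6CASTF1/J mice, F1 hybrids of C57BL/6J and CAST aged 8 to 10 months. Replicate 2 is labelled animal 3 and replicate 1 is labelled animal 1. Both carry 1 donor code, so they were taken as separate animals on the animal numbers alone. There was 1 group and 1 library per animal, so the only comparison is replicate 2 over replicate 1, and no test across animals exists. The spread between these libraries may be technical as well as biological.

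Collagens are trimers whose chains repeat a triplet of residues that begins with glycine. Fibrillar collagens assemble into the fibres of capsules and stroma, collagen IV and laminins build the sheets on which epithelium and endothelium rest, and small proteoglycans such as decorin and biglycan bind fibrils. In the adrenal gland a fibrous capsule surrounds the cortex, and steroid-producing cells lie along a dense network of fenestrated capillaries with basement membrane between them.

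Libraries held 34319787 expected counts in replicate 2 and 40453707 in replicate 1, so 3 counts, taken as the floor of detection, correspond to 0.0874 CPM in replicate 2 and 0.0742 CPM in replicate 1. Matrix genes took 0.635% of the counts in replicate 2 (95% Wilson interval 0.6324 to 0.6377%) and 0.652% in replicate 1 (0.6499 to 0.6548%). Such intervals cover counting error only. Over 12645 genes the counts of the libraries gave 45.2 per degree of freedom in a chi-square, so they are not 1 library deposited a second time. The tissue label fitted its markers: 7 cortex markers summed to 27010 TPM, the length-scaled share of a library, in replicate 2 and 25839 in replicate 1, and 5 medulla markers to 1921 TPM in replicate 2 and 2136 in replicate 1.

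The type IV collagen chain genes are shown first because they were the most abundant pair of collagen chains of 1 trimer and their promoters overlap. Col4a1 and Col4a2 lie head to head on chromosome 8, with start sites at 11312826 on the minus strand and 11312805 on the plus strand, 21 bases apart, and their annotated bodies overlap by 22 bases. The RefSeq promoter windows (GRCm38.p6, 250 bases before to 50 after the start) are chr8:11312777-11313076 for Col4a1, minus strand, and chr8:11312555-11312854 for Col4a2, plus strand. They are printed 5′ to 3′ on the strand of each gene, with the 78 bases present in both windows, as reverse complements, in capitals.
Col4a1: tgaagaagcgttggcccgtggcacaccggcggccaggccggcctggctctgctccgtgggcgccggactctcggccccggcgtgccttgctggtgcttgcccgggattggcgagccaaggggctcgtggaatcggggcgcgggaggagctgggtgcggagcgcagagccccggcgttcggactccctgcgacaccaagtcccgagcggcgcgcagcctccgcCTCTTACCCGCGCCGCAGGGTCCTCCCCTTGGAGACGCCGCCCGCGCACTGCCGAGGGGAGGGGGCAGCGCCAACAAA
Col4a2: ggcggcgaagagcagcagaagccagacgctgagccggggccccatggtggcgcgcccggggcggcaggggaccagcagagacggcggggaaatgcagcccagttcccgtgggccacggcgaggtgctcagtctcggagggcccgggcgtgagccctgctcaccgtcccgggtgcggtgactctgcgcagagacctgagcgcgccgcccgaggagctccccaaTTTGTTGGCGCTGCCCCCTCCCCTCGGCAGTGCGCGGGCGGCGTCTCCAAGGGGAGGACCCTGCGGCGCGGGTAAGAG
The Col4a1 window was 74.0% G or C and the Col4a2 window 73.7%. Each holds the GC box GGGCGG, with 1 match in the Col4a1 window and 3 in the Col4a2 window, and each holds 1 CCAAT. No source used here gives the strand setting of the counting, and reads over the 22 shared bases cannot be assigned with certainty.

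Promoters of Col5a3 and Col3a1 are shown because these were the fibrillar collagen with the highest level and the one with the lowest ratio between the animals. Their windows are chr9:20815018-20815317, minus strand, and chr1:45311288-45311587, plus strand, on the same build. Capitals mark matches on either strand to the GC box GGGCGG, to the CCAAT box, or to the TATA box, searched as TATAAA.
Col5a3: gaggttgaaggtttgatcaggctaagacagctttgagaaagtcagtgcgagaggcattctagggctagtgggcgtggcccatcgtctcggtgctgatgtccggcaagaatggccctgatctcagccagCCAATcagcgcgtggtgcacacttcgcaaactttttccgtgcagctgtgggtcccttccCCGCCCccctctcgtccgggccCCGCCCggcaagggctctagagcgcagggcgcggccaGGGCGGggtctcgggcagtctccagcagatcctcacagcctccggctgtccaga
Col3a1: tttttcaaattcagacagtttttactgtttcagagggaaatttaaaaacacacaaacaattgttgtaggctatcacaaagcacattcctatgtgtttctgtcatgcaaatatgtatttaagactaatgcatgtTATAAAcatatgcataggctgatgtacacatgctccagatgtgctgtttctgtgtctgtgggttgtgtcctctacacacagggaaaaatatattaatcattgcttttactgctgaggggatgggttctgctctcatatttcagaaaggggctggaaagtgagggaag
The Col5a3 window was 63.3% G or C and held 3 GC boxes and a CCAAT at positions -122 to -118, counting the start site as 0. By contrast the Col3a1 window was 37.7% G or C, held no GC box or CCAAT, and carried TATAAA at positions -117 to -112. Among the 32 matrix genes with a RefSeq window, 21 held GGGCGG, which is 65.6%, against 35.9% of all 27025 promoters. Those 27025, 1 per gene, were not limited by level or gene type, so they differ from the matrix genes in more than class. The Col4a1 match and 1 of the Col4a2 matches are the same bases, counted for each gene. TATAAA stood in 2 of the 32, in Col3a1 and Tnc (6.25%, against 14.2% of all promoters), and CCAAT in 11 (34.4%, against 37.9%). TGANTCA stood in 2 (Col6a1 and Tnxb; 6.25%, against 7.93%) and GTCTNGAC in 0 of 32, against 1.87% of all. All letters were searched on both strands, and a match describes the letters of the window only.

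Coding sequence separates the classes at the level of the repeat. Stretches of 90 bases are shown from the GENCODE M21 transcripts Col3a1-201 (codons 164 to 193), Col5a3-201 (codons 478 to 507) and Col4a1-201 (codons 148 to 177). They are read in frame, with glycine codons, GGN, in capitals. In Col3a1 and Col5a3 capitals mark only the glycine codons that begin a triplet of the repeat. The codons gga and ggt of the Col3a1 stretch also encode glycine but lie off that spacing, in lower case. In Col4a1 every glycine codon is in capitals.
Col3a1: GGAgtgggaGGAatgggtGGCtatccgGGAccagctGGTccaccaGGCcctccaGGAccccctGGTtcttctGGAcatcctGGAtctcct
Col5a3: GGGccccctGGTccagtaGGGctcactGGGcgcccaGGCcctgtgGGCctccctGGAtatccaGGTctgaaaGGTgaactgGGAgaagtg
Col4a1: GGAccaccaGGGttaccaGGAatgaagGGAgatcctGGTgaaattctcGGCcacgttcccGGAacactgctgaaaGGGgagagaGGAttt
In Col3a1 and Col5a3 the capitals recur without a break at the same spacing, as both stretches were cut from the start of the longest unbroken run. The Col4a1 stretch was cut across the end of its longest run and so leaves the spacing. The stretches illustrate the repeat, and the contrast between them follows from that choice. The longest unbroken run had 337 to 344 triplets in the 6 fibrillar collagens, with 344 in Col3a1 and 337 in Col5a3. Collagen IV chains were interrupted, with a longest run of 40 triplets and 22 runs of 5 or more in Col4a1, and of 66 triplets and 24 such runs in Col4a2. Runs reached 87 triplets in Col6a1 and in Col6a2, 45 in Col6a3, 32 in Col12a1 and in Col14a1, and 30 in Col15a1 and in Col18a1.

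All levels below are the deposited TPM of the gene tables, which are scaled per length. The order of genes can depend on short annotated transcripts, as for Lamb1 and Lamb2 below. Transcripts under 1000 bases held 20% or more of the TPM in both animals in 8 of the genes. The 49 matrix genes summed to 1872 TPM in replicate 2 and 1947 in replicate 1, a mean of 1909 ± 52.4 (SD, n = 2). Of them, 48 reached 1 TPM in both animals, against 23.8% of all annotated genes and 54.5% of protein-coding genes, and 24 reached 10 TPM in both. Lox, which cross-links collagen and elastin, was the exception, at 0.700 TPM in replicate 2 and 1.57 in replicate 1. All 49 had a mean expected count of 100 or more, with a lowest mean of 196.

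**Figure D1:**
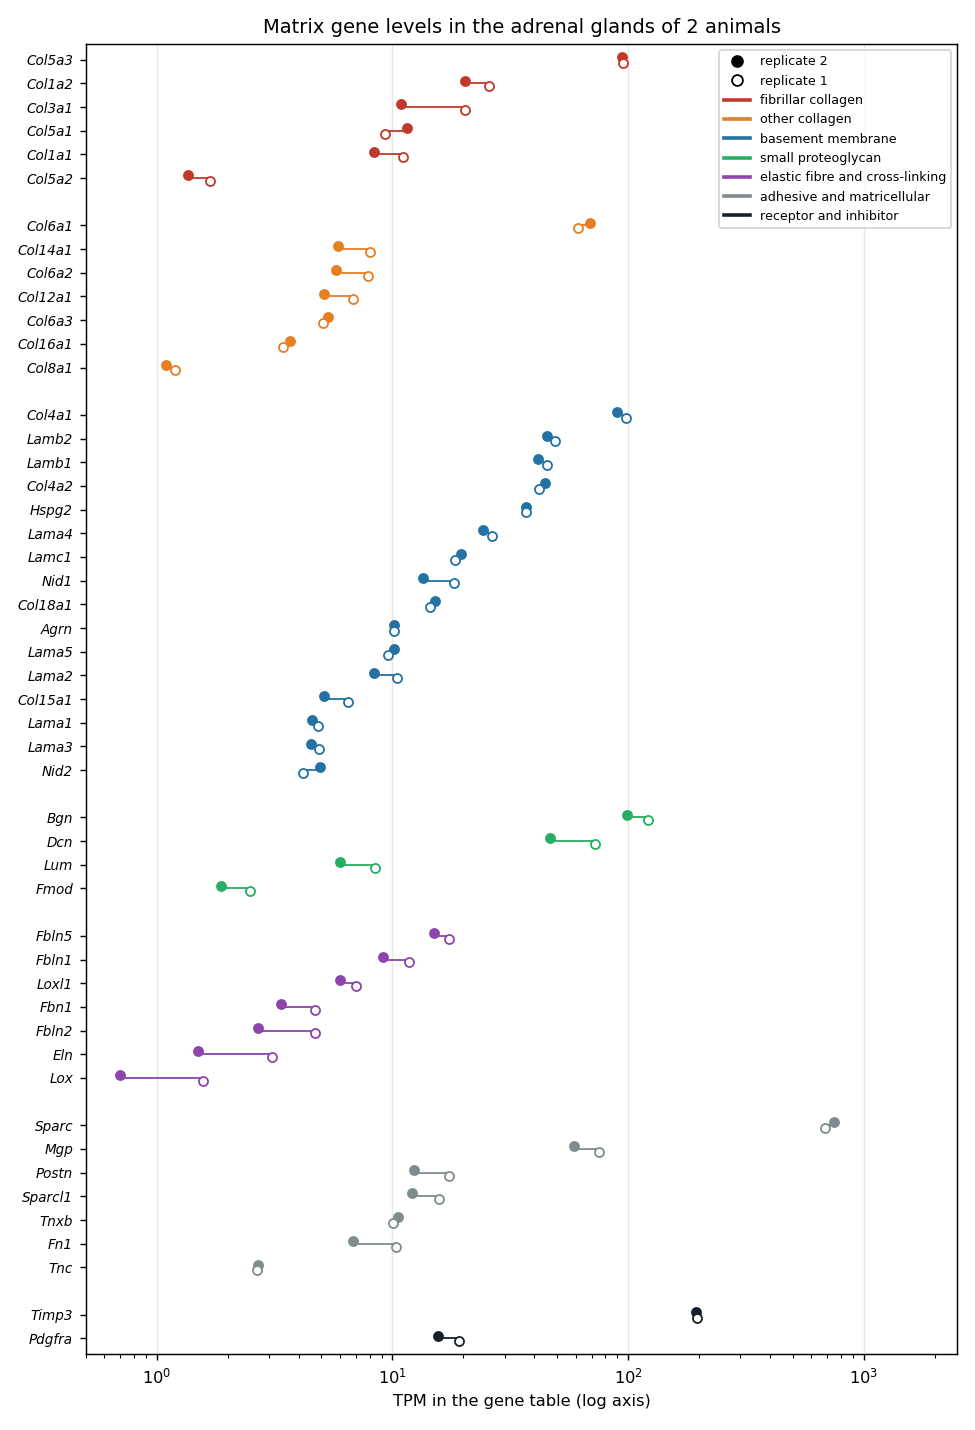
TPM (log axis) of each of the 49 matrix genes in replicate 2 (filled) and replicate 1 (open), joined by a line and grouped by class. Sparc stands highest at 746 TPM in replicate 2 and 686 in replicate 1, and all 4 small proteoglycans, all 7 elastic fibre genes and Col3a1 have the filled point left of the open one.

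The matrix gene of highest level was Sparc, a secreted glycoprotein that binds collagen and calcium. It had 746 TPM in replicate 2 and 686 in replicate 1, and with Timp3 it made up 50.3% of the matrix TPM in replicate 2 and 45.4% in replicate 1. The Sparc gene lies on chromosome 11 (mm10, 55394500 to 55423183, minus strand). Timp3, a metalloproteinase inhibitor that is bound to matrix, had 195 TPM in replicate 2 and 197 in replicate 1. Their log2 ratios were 0.02 for Sparc and -0.12 for Timp3 on the count scale defined below.

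Fibrillar collagens were led by Col5a3, not by the chains of collagen I or III. Col5a3, a chain of the minor fibrillar collagen V that sets fibril diameter, had 93.9 TPM in replicate 2 and 94.8 in replicate 1 (94.4 ± 0.601, SD, n = 2). The gene lies on chromosome 9 (20770050 to 20815067, minus strand), and its transcript Col5a3-201 held 93.4% of the gene's TPM in replicate 2 and 97.3% in replicate 1. The other 5 fibrillar genes together summed to 52.5 TPM in replicate 2 and 68.2 in replicate 1, less than Col5a3 alone in either animal.

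Collagen I chains followed. Col1a2 had 20.4 TPM in replicate 2 and 25.8 in replicate 1, and Col1a1 had 8.36 TPM in replicate 2 and 11.1 in replicate 1. The ratio of Col1a1 to Col1a2 was 0.409 in replicate 2 and 0.429 in replicate 1 (0.419 ± 0.0141), so the alpha-1 chain, the more numerous chain in the collagen I protein, had the lower transcript level in both animals. It was 0.469 in replicate 2 and 0.494 in replicate 1 when only the long transcripts Col1a1-201 and Col1a2-201 were set against each other. Col3a1, the homotrimeric fibrillar collagen of loose connective tissue and vessel walls, had 10.9 TPM in replicate 2 and 20.4 in replicate 1.

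Among the collagen V chains, Col5a1 had 11.5 TPM in replicate 2 and 9.33 in replicate 1, and Col5a2 had 1.36 TPM in replicate 2 and 1.68 in replicate 1, the lowest of the fibrillar class. Col5a3 exceeded Col5a1 by 8.19 times in replicate 2 and 10.2 times in replicate 1. Its excess over Col5a2 was 69.1-fold in replicate 2 and 56.4-fold in replicate 1. Summed over its 3 chains, collagen V reached 107 TPM in replicate 2 and 106 in replicate 1.

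Basement membrane genes formed the largest class by number and held 378 TPM in replicate 2 and 400 in replicate 1. Col4a1 led with 89.5 TPM in replicate 2 and 98.4 in replicate 1, and its partner chain Col4a2 had 44.3 TPM in replicate 2 and 42.1 in replicate 1. The ratio between these chains was 2.02 in replicate 2 and 2.34 in replicate 1 (2.18 ± 0.224). A short transcript, Col4a1-203, of 545 bases, took 24.5% of the Col4a1 TPM in replicate 2 and 30.1% in replicate 1. Between the long transcripts Col4a1-201 and Col4a2-201 the ratio was 1.39 in replicate 2 and 1.47 in replicate 1. In the index-based transcript table, a second deposited quantification, the ratio of the genes was 3.23 in replicate 2 and 3.71 in replicate 1, where Col4a1-204 (416 bases) held 35.5% of Col4a1 in replicate 2 and 31.3% in replicate 1, while the alignment-based table listed it at 0.

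Laminins, cross-shaped trimers of an alpha, a beta and a gamma chain, were represented by 8 genes. The beta chain of highest level was Lamb2, with 45.4 TPM in replicate 2 and 49.2 in replicate 1, next to Lamb1 with 41.7 TPM in replicate 2 and 45.1 in replicate 1. Their order depended on the transcripts counted: Lamb1 over Lamb2 was 0.920 in replicate 2 and 0.917 in replicate 1 over whole genes, but 1.65 in replicate 2 and 1.70 in replicate 1 between Lamb1-201 and Lamb2-201. A short transcript, Lamb2-206, of 345 bases, held 33.7% of the Lamb2 TPM in replicate 2 and 42.0% in replicate 1. In the index-based table Lamb2-206 held 4.49% in replicate 2 and 19.6% in replicate 1, while Lamb2-204, of 332 bases and listed at 0 in the alignment-based table, held 26.3% in replicate 2 and 34.5% in replicate 1. Lamc1, the gamma chain shared by most laminins, had 19.5 TPM in replicate 2 and 18.5 in replicate 1.

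The alpha chains were ordered Lama4, Lama5, Lama2, Lama1 and Lama3 by mean level. Lama4, typical of vessel walls, had 24.2 TPM in replicate 2 and 26.5 in replicate 1. Its ratio to Lama5, another endothelial laminin chain, was 2.37 in replicate 2 and 2.77 in replicate 1. Lama5 had 10.2 TPM in replicate 2 and 9.55 in replicate 1, and Lama2, known from muscle and nerve, had 8.33 TPM in replicate 2 and 10.5 in replicate 1, so their order changed between the animals. Lama1 had 4.57 TPM in replicate 2 and 4.85 in replicate 1, and Lama3, an epithelial chain, had 4.50 TPM in replicate 2 and 4.88 in replicate 1, close to Lama1 within the spread. Alpha chains together held 51.8 TPM in replicate 2 and 56.2 in replicate 1, beta chains 87.1 TPM in replicate 2 and 94.3 in replicate 1.

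Linker and heparan sulfate components ranged from perlecan, the highest, down to Nid2. Hspg2 (perlecan) had 36.9 TPM in replicate 2 and 36.8 in replicate 1, and Agrn (agrin), also a heparan sulfate proteoglycan, had 10.2 TPM in each animal. The nidogens join laminin to collagen IV: Nid1 had 13.5 TPM in replicate 2 and 18.2 in replicate 1, whereas Nid2, the lowest gene of the whole class by mean, had 4.93 TPM in replicate 2 and 4.19 in replicate 1. Nid1 over Nid2 was therefore 2.74 in replicate 2 and 4.34 in replicate 1. Col18a1, the source of endostatin, had 15.1 TPM in replicate 2 and 14.4 in replicate 1, and its relative Col15a1 had 5.11 TPM in replicate 2 and 6.50 in replicate 1.

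**Figure D2:**
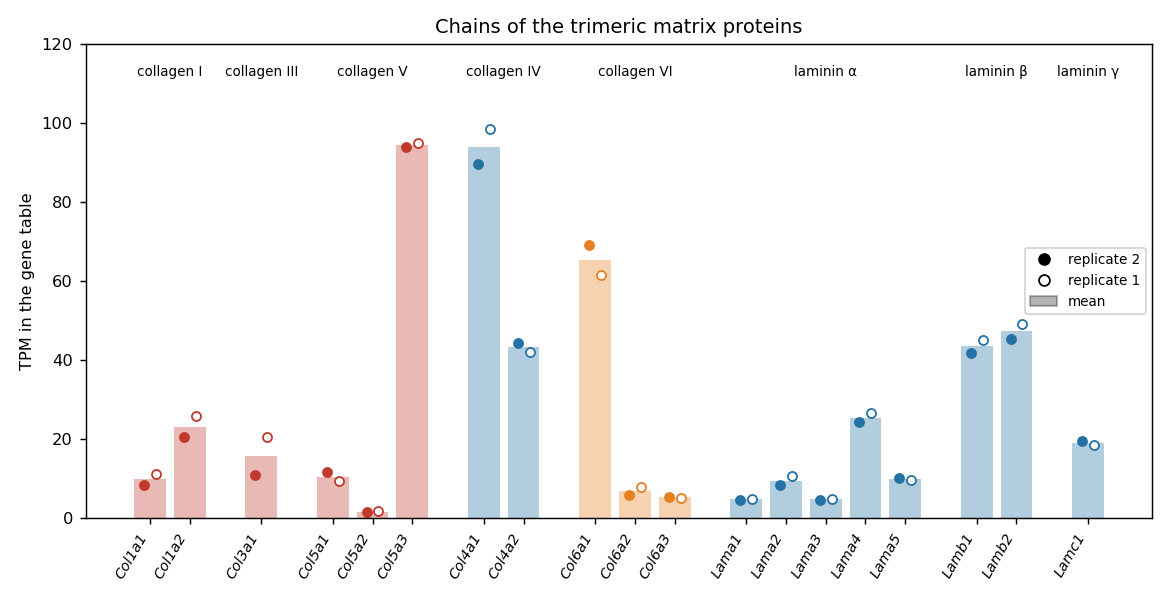
TPM of the chains of collagens I, III, V, IV and VI and of the laminins; filled points are replicate 2, open points replicate 1, and bars the mean of both. Within collagen V the bar of Col5a3 stands at 94.4 TPM beside 10.4 TPM for Col5a1, and within collagen VI that of Col6a1 at 65.3 TPM beside 6.84 TPM for Col6a2.

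Collagen VI forms beaded filaments next to basement membranes from chains encoded by Col6a1, Col6a2 and Col6a3. Col6a1 had 69.0 TPM in replicate 2 and 61.6 in replicate 1, while Col6a2 had 5.79 TPM in replicate 2 and 7.89 in replicate 1 and Col6a3 had 5.34 TPM in replicate 2 and 5.06 in replicate 1. Col6a1 exceeded Col6a2 by 11.9 times in replicate 2 and 7.81 times in replicate 1, and the long transcripts Col6a1-201 and Col6a2-201 gave 13.3 times in replicate 2 and 8.44 in replicate 1, so this imbalance did not rest on short transcripts. Col6a2 lies next to Col6a1 on chromosome 10 (76595762 to 76623630 for Col6a2 and 76708792 to 76726168 for Col6a1, both minus strand).

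The remaining collagens of the list had lower levels. Those associated with fibril surfaces were Col14a1, with 5.90 TPM in replicate 2 and 8.05 in replicate 1, Col12a1, with 5.13 TPM in replicate 2 and 6.83 in replicate 1, and Col16a1, with 3.67 TPM in replicate 2 and 3.44 in replicate 1. Col8a1, a network-forming collagen of vessel walls, was the lowest of the class at 1.10 TPM in replicate 2 and 1.20 in replicate 1. Col14a1 and Col12a1 had lower levels in replicate 2, while Col16a1 and Col8a1 were close in both animals.

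Small leucine-rich proteoglycans were fewer and, by class median, more abundant. Bgn (biglycan), on chromosome X (73483602 to 73495933, plus strand), had 98.9 TPM in replicate 2 and 122 in replicate 1. Dcn (decorin) had 46.7 TPM in replicate 2 and 72.3 in replicate 1. Lum (lumican) had 5.99 TPM in replicate 2 and 8.46 in replicate 1, and Fmod (fibromodulin), known from tendon, had 1.87 TPM in replicate 2 and 2.50 in replicate 1. All 4 were lower in replicate 2, by fold values given below, and Bgn exceeded Dcn by 2.12 times in replicate 2 and 1.68 times in replicate 1.

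Class medians of level overlapped between fibrillar and basement membrane genes. The median was 11.2 TPM in replicate 2 and 15.7 in replicate 1 over the 6 fibrillar genes (13.0 ± 3.21 TPM over the means of both animals, SD, n = 2), 14.3 TPM in replicate 2 and 16.3 in replicate 1 over the 16 basement membrane genes (15.3 ± 1.41), and 26.3 TPM in replicate 2 and 40.4 in replicate 1 over the 4 small proteoglycans (33.4 ± 9.94). The small proteoglycan median was the highest of the 3 in each animal, but with 4 genes ranging from Fmod to Bgn it rests on few values.

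Among adhesive and matricellular genes, Mgp (matrix Gla protein), an inhibitor of calcification, followed Sparc with 59.0 TPM in replicate 2 and 75.6 in replicate 1, and these 2 genes stood well above the other 5 of the class. Postn (periostin), a matricellular protein of fibroblasts, had 12.3 TPM in replicate 2 and 17.4 in replicate 1, and Sparcl1, a relative of Sparc, had 12.1 TPM in replicate 2 and 15.7 in replicate 1. Tnxb (tenascin X) had 10.6 TPM in replicate 2 and 10.1 in replicate 1; it overlaps the pseudogene Cyp21a2-ps by 3 bases, which had 322 TPM in replicate 2 and 253 in replicate 1. Fn1 (fibronectin) was modest at 6.79 TPM in replicate 2 and 10.4 in replicate 1, and Tnc (tenascin C), an adhesion-modulating protein of remodelling tissue, was lowest at 2.68 TPM in replicate 2 and 2.66 in replicate 1.

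Elastic fibre genes were the lowest class, with a median of 4.03 ± 0.933 TPM. Fbln5, needed for elastic fibre assembly, had 15.0 TPM in replicate 2 and 17.4 in replicate 1, Fbln1 had 9.15 TPM in replicate 2 and 11.8 in replicate 1, and the cross-linking enzyme Loxl1 had 5.99 TPM in replicate 2 and 7.04 in replicate 1. The microfibril gene Fbn1 had 3.37 TPM in replicate 2 and 4.68 in replicate 1, and Fbln2 had 2.68 TPM in replicate 2 and 4.69 in replicate 1. Eln, encoding elastin, the extensible core of the fibre, had 1.5 TPM in replicate 2 and 3.08 in replicate 1. In all 7 genes replicate 2 had the lower level. Pdgfra, the growth factor receptor of fibroblast lineage cells, had 15.6 TPM in replicate 2 and 19.2 in replicate 1.

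For the ratio between the animals, expected counts were scaled by TMM (trimmed mean of M values) and 0.5 was added, and the log2 ratio is replicate 2 over replicate 1. Of the 49 matrix genes, 42 had a ratio below 0, against 51.0% of the 17751 genes with a mean count of 10 or more and 56.3% of the protein-coding genes with a mean count of 100 or more. The median was -0.32 over the matrix genes, with quartiles of -0.51 and -0.12, beside -0.01 over all genes, with quartiles of -0.18 and 0.23. A ratio of -0.4 or less was found for 22 matrix genes, against 7.17% of genes with a mean count of 100 or more, and 19 lay within 0.2 of 0, against 61.9%. In bulk tissue, fewer cells of a type and less RNA per cell cannot be told apart.

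The deposited tables give lower and upper TPM bounds for each gene and library, and these cover estimation within a library only. They did not overlap, with replicate 2 lower, for 22 of the 49 matrix genes, against 9.31% of the 12645 genes tested and 9.61% of the protein-coding ones. Replicate 2 was higher in this sense for 3 genes, Sparc, Col5a1 and Col6a1, against 17.3% of genes. On the TPM scale the median of all genes stood 0.10 above 0 (log2), which is the scale on which these bounds are given.

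A larger difference was called where the ratio was at least 2-fold, the mean count 100 or more and the TPM bounds apart. By that rule Col3a1 and Lox were lower in replicate 2, 2 of 49 genes against 0.696% of genes tested and 0.731% of the protein-coding ones, and 0 of 49 were higher against 0.498%. On TPM as deposited the rule also named 2 genes, Eln and Lox, against 0.530%; over all genes 88 were called lower and 63 higher on the TMM scale, and 67 lower and 120 higher on the TPM scale. With no replicate of either animal, none of these calls has an error beyond counting.

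Col3a1 had 1429 counts in replicate 2 and 3372 in replicate 1, a log2 ratio of -1.09 (95% counting interval -1.18 to -1.0), or 2.13-fold lower in replicate 2. Its TPM bounds were 9.79 to 12.9 in replicate 2 and 19.0 to 23.0 in replicate 1. The long transcript Col3a1-201 showed the same direction, with 1342 counts in replicate 2 and 3227 in replicate 1. The gene lies on chromosome 1 (45311538 to 45349706, plus strand) and contains on its own strand the annotated miRNA gene Gm47302, which was assigned 9.27 counts in replicate 2 and 60.4 in replicate 1, so reads over those 141 bases may be divided between them.

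Lox, which lies on chromosome 18 (52516067 to 52529867, minus strand), had 108 counts in replicate 2 and 283 in replicate 1, a log2 ratio of -1.24 (-1.58 to -0.92), 2.36-fold lower in replicate 2. Its transcript Lox-201 held 100% of its TPM in each animal. Eln, whose protein is a substrate of that enzyme, had 168 counts in replicate 2 and 364 in replicate 1, a ratio of -0.97 (-1.24 to -0.70), just outside the rule. The next lowest were Fbln2 at -0.82 (298 counts in replicate 2 and 583 in replicate 1), Col15a1 at -0.72 (581 counts in replicate 2 and 1055 in replicate 1) and Dcn at -0.72 (2567 counts in replicate 2 and 4660 in replicate 1). Col15a1 had overlapping TPM bounds and stood at -0.35 on TPM as deposited.

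**Figure D3:**
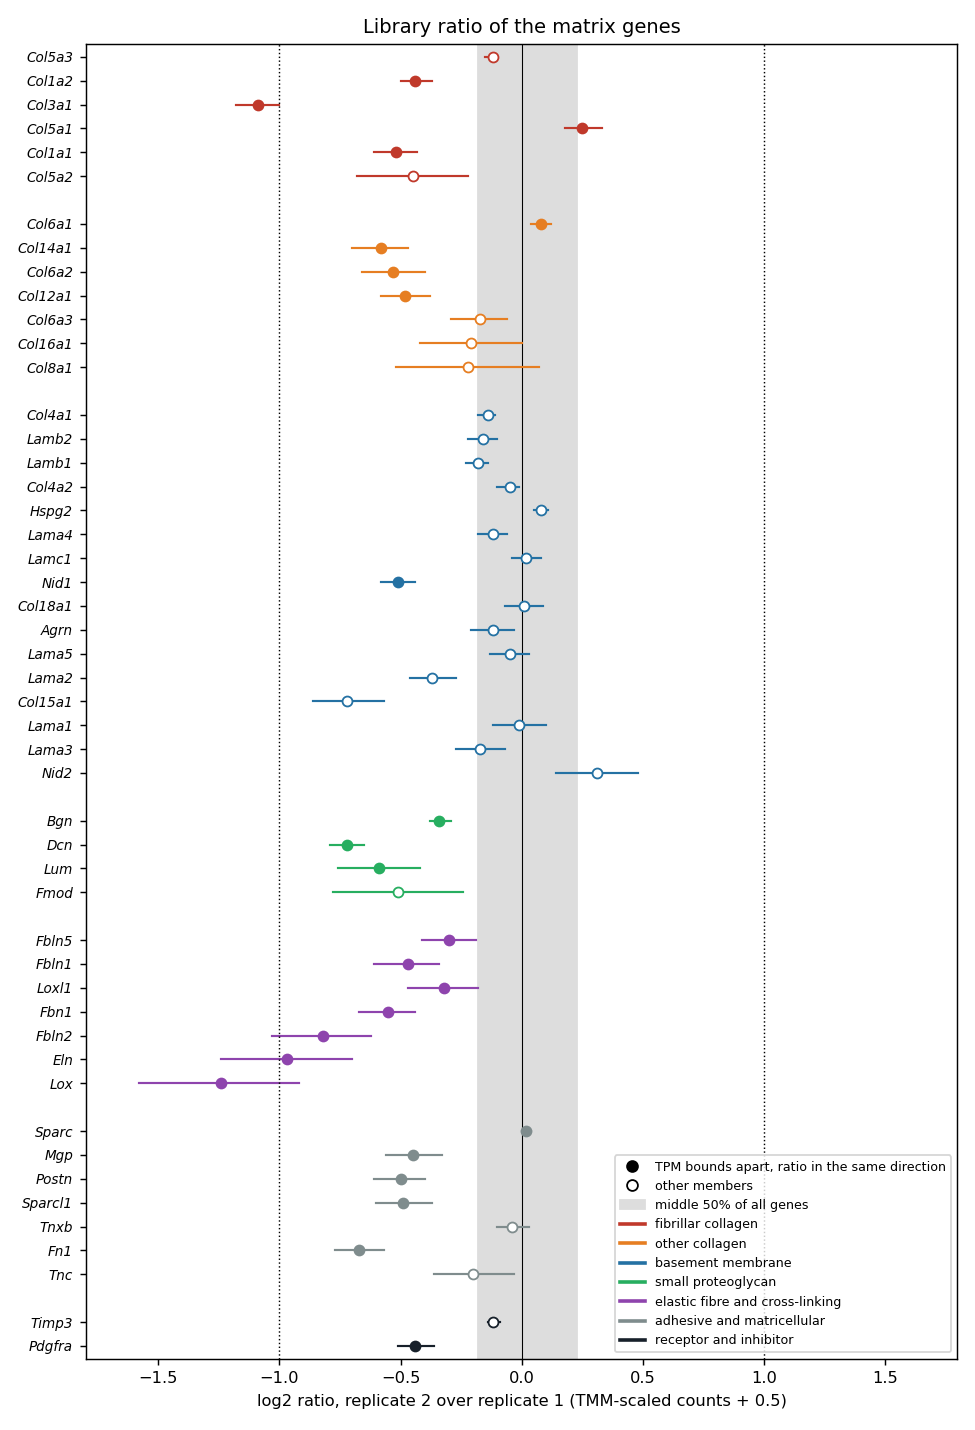
Log2 ratio of replicate 2 over replicate 1 (TMM-scaled counts plus 0.5) for the 49 matrix genes, with 95% counting intervals; filled points have TPM bounds apart in the direction of the ratio, the grey band is the middle 50% of all genes, and dotted lines mark 2-fold. All 4 small proteoglycans and all 7 elastic fibre genes lie left of the grey band, while most basement membrane genes lie in it or close to it.

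The classes differed in their ratios. Counts of genes with bounds apart stand beside 9.31% lower and 17.3% higher among the 12645 genes tested. Fibrillar collagens had a median of -0.44, with 5 of 6 below 0 and bounds apart and lower in 3, Col1a1, Col1a2 and Col3a1. Within that class Col5a3 stood at -0.12 and Col5a1 at 0.25, and Col5a1 had bounds apart and higher in replicate 2 (3148 counts in replicate 2 and 2917 in replicate 1). Col1a1 at -0.52, Col1a2 at -0.44 and Col5a2 at -0.45 lay close together, each outside the middle 50% of all genes.

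Basement membrane genes had a median of -0.12, with 12 of 16 below 0. Bounds were apart and lower in 1 of the 16, Nid1 at -0.51, against 9.31% of genes. Collagen IV chains were near 0, at -0.14 for Col4a1 and -0.05 for Col4a2, as were Lamc1 at 0.02, Col18a1 at 0.01, Hspg2 at 0.08, Lama1 at -0.01 and Lama5 at -0.05. Lamb1 at -0.18, Lamb2 at -0.16, Lama3 at -0.17, Lama4 at -0.12 and Agrn at -0.12 also had overlapping bounds. Only 3 of the 16 were at -0.3 or less, Col15a1, Nid1 and Lama2 (-0.37), and Nid2 was highest of all 49 genes at 0.31 with overlapping bounds. The fibrillar median minus the basement membrane median was -0.32, a description with no test. Across the 49 genes some signs depended on the scaling. Col4a2, Lama1, Lama5 and Tnxb were above 0 when scaled to total counts, and Col18a1, Lamc1 and Sparc were below 0 in the index-based table. On TPM, Col16a1 stood at 0.09, Col6a3 at 0.08 and Tnc at 0.01, as well as Col4a2, Lama5 and Tnxb above 0.

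Small proteoglycans had a median of -0.55 and all 4 were below 0. Dcn was 1.64-fold lower in replicate 2, Lum 1.5-fold at -0.59, Fmod 1.42-fold at -0.51 and Bgn 1.26-fold at -0.34, and the TPM bounds were apart for Dcn, Lum and Bgn. Elastic fibre genes had the same median of -0.55. All 7 had bounds apart and lower, against 9.31% of genes, from Fbln5 at -0.30 to Lox at -1.24. Among adhesive genes the median was -0.45, with Fn1 at -0.67, Postn at -0.50, Sparcl1 at -0.49 and Mgp at -0.45 lower with bounds apart, while Tnc at -0.20 and Tnxb at -0.04 had overlapping bounds.

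Among other collagens the median was -0.22. Bounds were apart and lower in replicate 2 for 3 of 7, Col14a1 at -0.58, Col6a2 at -0.53 and Col12a1 at -0.48, against 9.31% of genes. Collagen VI chains were not alike: Col6a1 stood at 0.08 with bounds apart and higher, Col6a3 at -0.17 and Col6a2 at -0.53. Col16a1 at -0.21 and Col8a1 at -0.22 had counting intervals reaching 0 or beyond. Pdgfra was at -0.44, with bounds apart.

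The 8 matrix genes of highest mean TPM, Sparc, Timp3, Bgn, Col5a3, Col4a1, Mgp, Col6a1 and Dcn, spanned -0.72 to 0.08. Across the 49 genes Spearman's rho between mean TPM and log2 ratio was 0.37, and between effective length and ratio 0.33, beside -0.16 and 0.04 over 11902 protein-coding genes; these are descriptions across genes that share both libraries.

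Of the 47 matrix genes with several annotated transcripts, 42 had the same leading transcript in each animal, and 40 had it in both transcript tables as well. The leading transcript held 90% or more of the TPM in both animals in 12 genes. Leading transcripts differed between the animals in 5 genes, Col16a1, Fn1, Hspg2, Postn and Fbln2. Transcripts under 1000 bases held 20% or more of the TPM in both animals in 8 genes, Col3a1, Col4a1, Col6a3, Col16a1, Lama5, Lamb2, Nid2 and Mgp, and in at least 1 animal in 12.

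Eln showed the widest change in transcript make-up among the genes plotted. The coding transcript Eln-201 had 141 counts in replicate 2 and 150 in replicate 1, or 1.14 TPM in replicate 2 and 1.03 in replicate 1, so its level differed little. The retained-intron transcript Eln-204 had 0 counts in replicate 2 and 103 in replicate 1, and the nonsense-mediated decay transcript Eln-203 had 11.8 counts in replicate 2 and 83.6 in replicate 1. As a result Eln-201 held 76.0% of the Eln TPM in replicate 2 and 33.4% in replicate 1, and by index-based quantification it held 80.7% in replicate 2 and 35.0% in replicate 1. The lower Eln level of replicate 2 thus lay in transcripts other than the annotated coding Eln-201, as far as these estimates divide reads that the transcripts share.

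Nid2 and Hspg2 also shifted. Nid2-201, the coding transcript, had 602 counts in replicate 2 and 435 in replicate 1 and held 77.3% of the Nid2 TPM in replicate 2 and 56.0% in replicate 1, while the retained-intron transcript Nid2-204 had 0 counts in replicate 2 and 93.6 in replicate 1. For Hspg2, Hspg2-201 held 44.7% in replicate 2 and 28.2% in replicate 1, and Hspg2-203 held 42.0% in replicate 2 and 48.4% in replicate 1. Over the 33 matrix genes with any TPM in retained-intron transcripts, their share was higher in replicate 2 in 18 and higher in replicate 1 in 15.

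**Figure D4:**
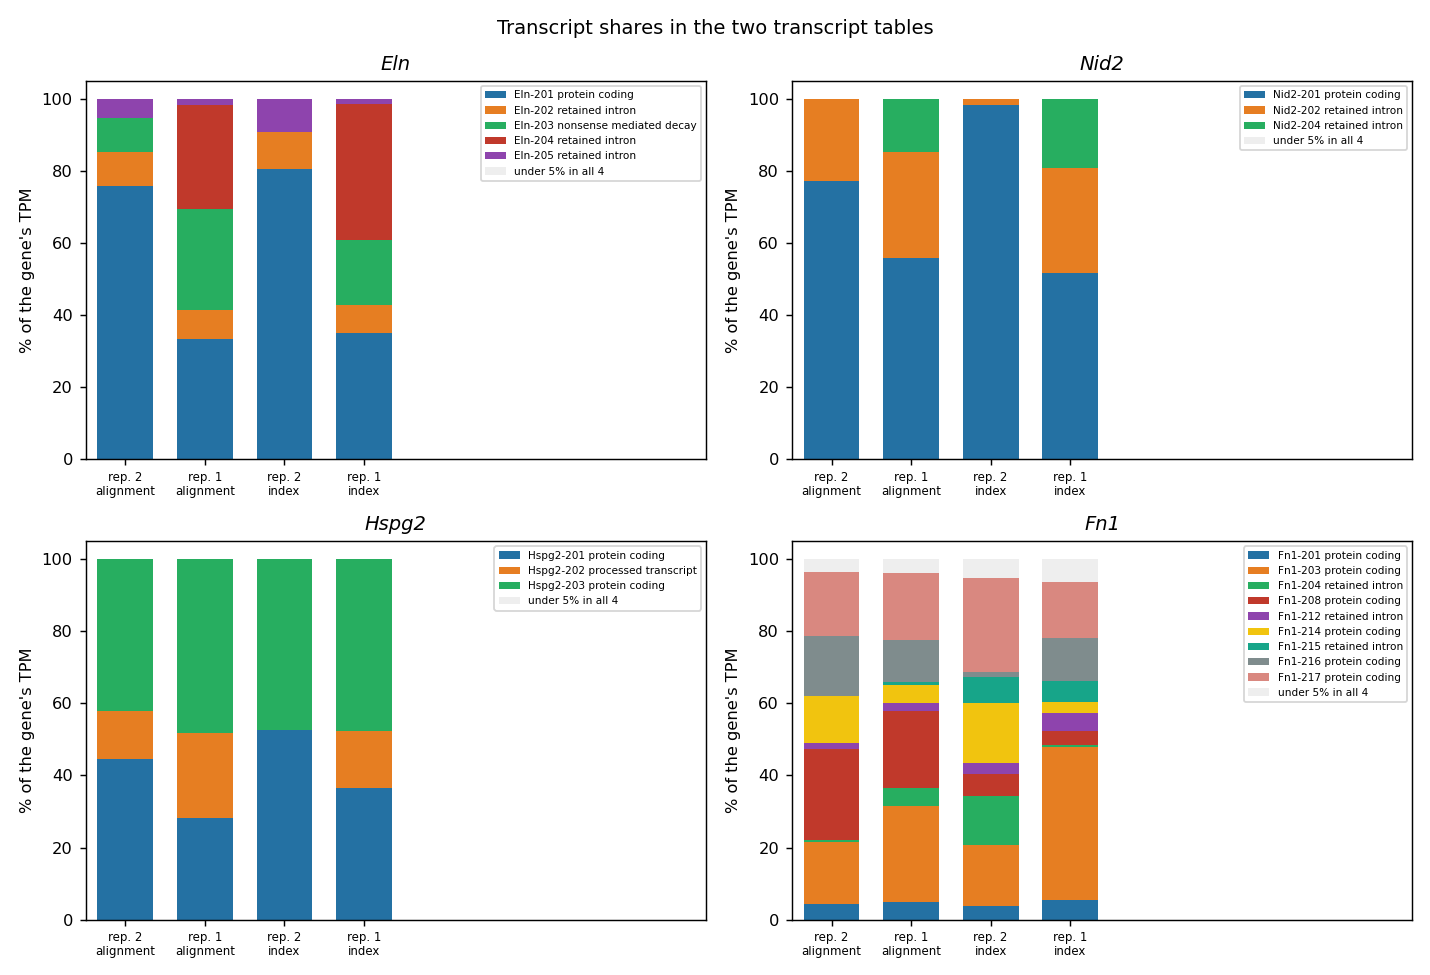
Share of each gene's TPM (%) held by its transcripts in the alignment-based and index-based tables, replicate 2 beside replicate 1, for Eln, Nid2, Hspg2 and Fn1. Eln-201 (blue) takes 76.0% in replicate 2 and 33.4% in replicate 1 in the alignment-based table, and 80.7% in replicate 2 and 35.0% in replicate 1 by the index-based one.

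The index-based table gave lower TPM for 48 of the 49 matrix genes, with a median quotient of 0.812 to the gene table; Col4a1 was the exception at 1.32. The genes that differed most were Lama2 (4.75 TPM against 9.41 TPM in the gene table), Lama5 (5.10 against 9.87), Col12a1 (3.55 against 5.98), Agrn (6.41 against 10.2) and Lama1 (3.21 against 4.71), as means of both animals. Each of these 5 was lower in the index-based table in both animals.

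Lists of genes that act on matrix, chosen with earlier results of these data known, had median ratios of -0.10 to -0.29. The 26 collagen processing genes had a median of -0.10, with 18 below 0. Of the 23 with a mean count of 100 or more, TPM bounds were apart with replicate 2 lower in 3 and higher in 5, against 9.31% and 17.3% of all such genes. Pcolce, the enhancer of procollagen C-proteinase, was more abundant than any collagen, at 449 TPM in replicate 2 and 357 in replicate 1 (ratio 0.24), followed by P4hb, a subunit of prolyl 4-hydroxylase, at 165 TPM in replicate 2 and 151 in replicate 1. Of the collagen chaperone Serpinh1 there were 54.2 TPM in replicate 2 and 91.6 in replicate 1 (-0.89). Of P4ha1, a catalytic subunit of prolyl 4-hydroxylase, there were 13.8 TPM in replicate 2 and 25.5 in replicate 1 (-0.98). Both Serpinh1 and P4ha1 were named after their values were seen.

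Among 23 matrix receptors the median was -0.14, with 14 below 0. Of the 21 with a mean count of 100 or more, bounds were apart with replicate 2 lower in 3, against 9.31% of genes, and higher in 8, against 17.3%. Sdc3 (syndecan 3) had 206 TPM in replicate 2 and 178 in replicate 1, and the integrin subunit Itgb5 had 103 TPM in replicate 2 and 84.9 in replicate 1. The 16 counted genes of matrix turnover had a median of -0.29, and 14 were below 0. Of the 11 with a mean count of 100 or more, bounds were apart and lower in 3, against 9.31%, and higher in 1, against 17.3%. Timp2 had 32.0 TPM in replicate 2 and 39.9 in replicate 1 (-0.43), and Mmp19, a secreted metalloproteinase, had 16.6 TPM in replicate 2 and 18.3 in replicate 1 (-0.17). The membrane-bound metalloproteinase Mmp14, named after its value was seen, had 20.3 TPM in replicate 2 and 12.0 in replicate 1 (0.69), the highest ratio of that list. In the TGF-beta pathway, which drives matrix genes in fibroblasts, the median of 17 genes was -0.13 with 10 below 0. Of the 16 with a mean count of 100 or more, bounds were apart and lower in 3, against 9.31%, and higher in 1, against 17.3%. The pathway had 1 called gene, against 0.696% of genes. It was Thbs1, an activator of latent TGF-beta, at 7.11 TPM in replicate 2 and 14.1 in replicate 1 (-1.10). The most abundant were Tgfbr3 (111 TPM in replicate 2 and 74.8 in replicate 1) and Ltbp3 (96.7 TPM in replicate 2 and 87.5 in replicate 1).

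Ratios of markers of cell types that hold or surround matrix differed from list to list. The 8 adipocyte markers summed to 762 TPM in replicate 2 and 1486 in replicate 1, with a median ratio of -1.04. Bounds were apart with replicate 2 lower in 7 of them, against 9.31% of genes, and 5 were called, against 0.696%. The exception was Lep (leptin), at a ratio of -0.01, with 2.95 TPM in replicate 2 and 2.04 in replicate 1. The most abundant were Cfd, with 254 TPM in replicate 2 and 488 in replicate 1, and Fabp4, with 221 TPM in replicate 2 and 435 in replicate 1. The 9 smooth muscle and pericyte markers all had ratios below 0 and summed to 77.2 TPM in replicate 2 and 108 in replicate 1, with a median of -0.72. Of the 8 with a mean count of 100 or more, bounds were apart and lower in 5, against 9.31% of genes. Of these 8, 2 were called, against 0.696%. Mesothelial markers (4 genes) summed to 6.18 TPM in replicate 2 and 7.14 in replicate 1 with all 4 below 0, and Schwann cell markers (6 genes) to 12.3 TPM in replicate 2 and 13.9 in replicate 1 with 4 below 0. Of the 2 mesothelial markers with a mean count of 100 or more, 1 had bounds apart and lower, against 9.31% of genes. Of the 4 such Schwann cell markers, 1 had bounds apart and higher, against 17.3% of genes, and 1 apart and lower, against 9.31%. The latter, S100b at -1.46, was called. No marker of these lists was at 0 in either animal, and their part in the ratios of the matrix genes was not tested.

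Endothelial markers (9 genes) summed to 295 TPM in replicate 2 and 301 in replicate 1, with 8 below 0 and a median of -0.15, close to the basement membrane median of -0.12. Bounds were apart with replicate 2 lower in 2 of these 9, against 9.31% of genes, and 0 were called. Macrophage markers (8 genes) summed to 153 TPM in replicate 2 and 165 in replicate 1, with 7 below 0 and a median of -0.12. Bounds were apart with replicate 2 lower in 2 of these 8, Cd163 at -1.85 and Lyz2 at -0.33, against 9.31% of genes. Of the macrophage markers 1 was called, Cd163, against 0.696% of genes. The 5 adrenal medulla markers all had ratios below 0, with a median of -0.16. Bounds were apart and lower in 4 of the 5, against 9.31% of genes, among them Chgb at -0.41 and Th at -0.38. The 7 cortex markers had a median of 0.03. Bounds were apart and higher in 4, against 17.3% of genes, and apart and lower in 2, against 9.31%. The part of these lists in the matrix ratios was not tested either. Skeletal muscle markers (4 genes) summed to 0.370 TPM in replicate 2 and 0.190 in replicate 1, with Myh4 at 0 in both.

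**Figure D5:**
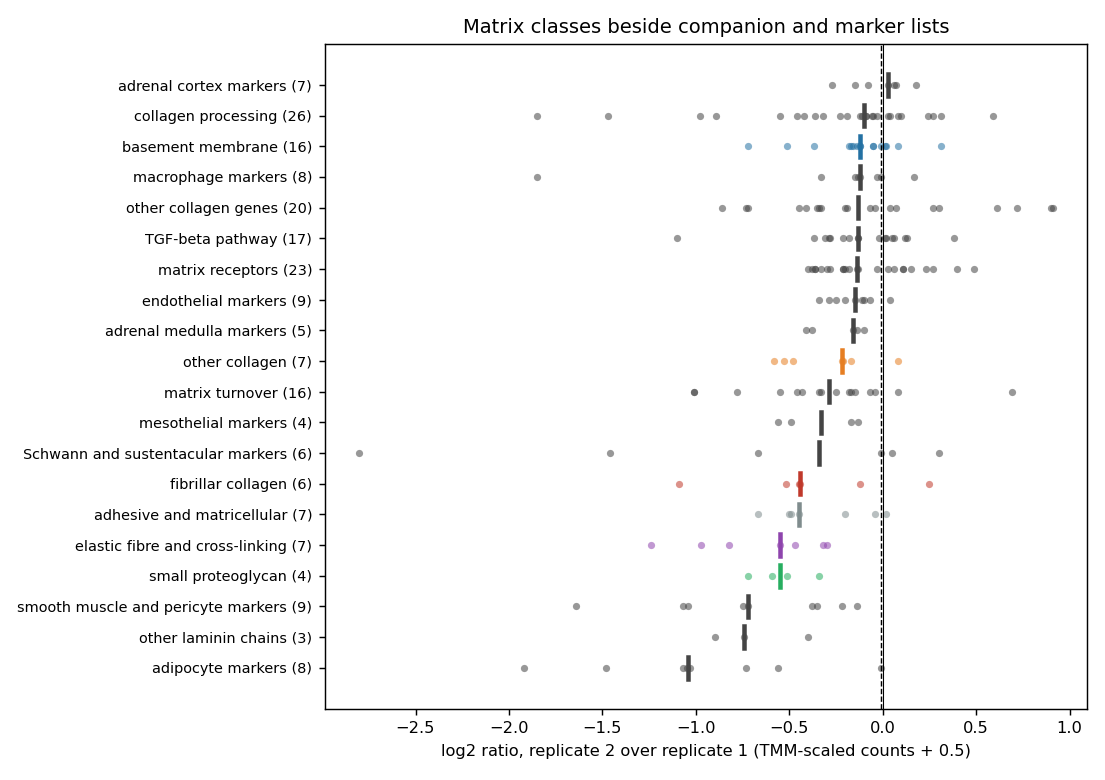
Log2 ratio of replicate 2 over replicate 1 for the genes of the matrix classes (coloured) and of the companion and marker lists (grey), with the median as a bar and the number of genes in brackets. The pair Timp3 and Pdgfra and the skeletal muscle markers are not plotted. The dashed line is the median of all genes. Small proteoglycan and elastic fibre genes (medians -0.55) lie between the adipocyte markers (-1.04) and the basement membrane genes (-0.12).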

How the data were processed

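The deposited gene tables hold expected counts, TPM, FPKM and lower and upper TPM bounds per gene, per the file headers; the transcript tables hold expected counts, TPM, FPKM and each transcript's percent of its gene, per the file headers, and the index-based tables hold estimated counts and TPM. No source used here names the program that made them or the strand used in counting; the build is mm10 with GENCODE M21, per the notes deposited with the files. Libraries held 34319787 (replicate 2) and 40453707 (replicate 1) expected counts.

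The matrix genes, classes and companion lists were chosen with earlier results of these data known. Ratios are log2 of expected counts plus 0.5 after TMM scaling (edgeR 4.0.16), over genes with a mean count of 10 or more. Scaling factors were computed on rounded expected counts, and the ratios on unrounded ones. Counting intervals treat counts as Poisson. A gene was called at 2-fold or more, a mean count of 100 or more and deposited TPM bounds apart. Values were given for the 3 highest genes and the lowest of each class, called genes, chains of 1 trimer, the 5 genes differing most between tables and the 2 highest of each list of genes that act on matrix; the other matrix genes were added so that each is shown. Marker lists are given as sums and counts, with genes singled out after their values were seen. No p-values exist, with 1 library per animal. The ratio computation was tested on simulated gene counts with known folds. That test did not cover the TPM bounds or the transcript estimates.

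Alternatives were DESeq2 1.42.0 size factors, total counts, TPM or FPKM as deposited, the index-based table, TPM rescaled over nuclear protein-coding genes, other pseudocounts and limits, each animal alone and, added after seeing the data, transcripts of 1000 bases or more. RefSeq promoter windows (GRCm38.p6) matched 32 of the 49 genes. Protein sequences were not used here.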

Additional observations from a re-analysis of the deposited data

How the results depend on the processing

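No paired analysis was possible because the study has 1 group, so no 2 groups share replicate numbers. The median ratios of fibrillar, basement membrane and small proteoglycan genes stayed below 0 in every setting run. With TPM rescaled over nuclear protein-coding genes the median levels were 36.6 TPM (fibrillar), 43.0 TPM (basement membrane) and 93.9 TPM (small proteoglycan) and the sum over all 49 genes was 5364 TPM. The index-based table gave a basement membrane median of 13.1 TPM and a sum of 1687 TPM, FPKM a sum of 1838, and transcripts of 1000 bases or more, chosen after seeing the data, a sum of 1717 TPM. In each animal alone the levels ranged from 11.2 to 15.7 TPM (fibrillar), 14.3 to 16.3 TPM (basement membrane), 26.3 to 40.4 TPM (small proteoglycan) and 1872 to 1947 TPM (sum). The fibrillar median ratio was -0.35 scaled to total counts, -0.32 on TPM and -0.51 in the index-based table. That of the basement membrane genes was -0.14 with DESeq2 size factors, -0.03 scaled to total counts, -0.10 on TPM and -0.13 in the index-based table, and that of the small proteoglycans -0.45 scaled to total counts and -0.46 on TPM. Fibrillar minus basement membrane was -0.22 on TPM and -0.37 in the index-based table. At 1.5-fold 7 matrix genes were lower in replicate 2 (Col3a1, Dcn, Eln, Fbln2, Fn1, Lox and Lum), against 2.58% of genes, and 0 were higher in every setting.

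Total counts and TPM placed the median of all genes at 0.09 and 0.10, and the matrix median differed from that of all genes by -0.29 to -0.37 over the settings run; 36 to 45 of the 49 genes were below 0. The sign changed for 6 genes on TPM (Col4a2, Col6a3, Col16a1, Lama5, Tnc and Tnxb), 4 with total counts (Col4a2, Lama1, Lama5 and Tnxb), 3 in the index-based table (Col18a1, Lamc1 and Sparc) and 1 with DESeq2 size factors (Col18a1). TPM lay outside its own deposited bounds for 5 matrix genes in replicate 2 and 4 in replicate 1. With 2 animals, no difference has an error from replicates of its own group.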

Other observations

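Outside the 49 genes, 27 further collagen genes were looked up, chosen with earlier results of these data known. Of these 7 reached 1 TPM in both animals, and their median level was 0.430 TPM. Col23a1, a transmembrane collagen, led with 5.03 TPM in replicate 2 and 3.90 TPM in replicate 1, followed by Col27a1, a fibrillar collagen of cartilage, with 4.50 TPM in replicate 2 and 3.36 in replicate 1. Of the 20 with a mean count of 10 or more, 12 had a ratio below 0 and 8 above, with a median of -0.13, and 15 had a mean count of 100 or more. Of those, 3 had TPM bounds apart and higher in replicate 2, against 17.3% of all such genes: Col23a1 (0.27), Col27a1 (0.30) and Col25a1 (0.72). Col25a1 had 2.84 TPM in replicate 2 and 1.56 TPM in replicate 1. Of the 15, Col6a5 had bounds apart and lower, against 9.31% of genes, with 0.670 TPM in replicate 2 and 1.51 TPM in replicate 1 (-0.86).

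Of the 3 laminin chain genes outside the list, Lamc3 had 5.82 TPM in replicate 2 and 7.18 TPM in replicate 1, above Lama1 and Lama3, with a ratio of -0.40 and bounds apart and lower, and Lamb3 had 0.830 TPM in replicate 2 and 0.430 in replicate 1. For Lamb3 the counts ran the other way, with 41.0 in replicate 2 and 76.0 in replicate 1 (ratio -0.74).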
